A study of Mus musculus with 2 samples.

Results

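The genes described here are 10 ligands and receptors of blood vessel growth, taken by symbol from the FPKM values of 24346 genes, and all 10 were listed in both libraries. They are the VEGF ligands Vegfa, Vegfb and Pgf, the angiopoietins Angpt1 and Angpt2, the angiopoietin-like protein gene Angptl4, the VEGF receptor genes Kdr and Flt1, and the angiopoietin receptor genes Tek and Tie1. Skin wounds of C57BL/6J neonates were compared, WT against PU.1-/- (PU.1_KO in the labels), with 1 library per genotype and harvest 24 h after wounding of pups 1 day old. The methods describe dorsal full-thickness incisions in littermates, whereas the series design calls the wounds excisional, and how many pups of which sex went into each library is not stated. PU.1 is an ETS family transcription factor encoded by Spi1, and pups without it form no macrophages, neutrophils, mast cells or T cells.

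VEGF ligands bind receptor tyrosine kinases on endothelial cells and drive sprouting, growth and permeability of vessels. Angiopoietins act through Tek (the gene of TIE2), where Angpt1 stabilises vessels and Angpt2, released by the endothelium itself, can loosen them, and Tie1 is a partner receptor of Tek. In healing skin these signals accompany the growth of new capillaries into granulation tissue, and keratinocytes and macrophages are known sources of Vegfa.

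FPKM counts fragments relative to exon length and library size, so levels can be compared between genes. A gene is called lower or higher here at a PU.1-/- over WT ratio of at least 2 in either direction, with values below 0.1 FPKM raised to 0.1. Since each genotype has 1 library, neither a test nor the spread over animals is available. Except for list medians, the 95% intervals cover counting error only, and rest on read numbers estimated from the whole-read steps of low values. The estimated depth was 1.38e+07 fragments for WT and 1.59e+07 for PU.1-/-. Spi1, the targeted gene, had 35.4 FPKM (WT) against 1.45 FPKM (PU.1-/-). All 10 macrophage markers were lower in PU.1-/-, with a summed level of 835 FPKM (WT) against 5.74 FPKM (PU.1-/-), and 6 of them, among them Tyrobp, C1qb, C1qc and Fcgr3, were listed at 0. The 4 Y-linked genes examined were listed at 0 in PU.1-/- and Xist was listed at 0 in WT, so that genotype and sex cannot be told apart in any value below.

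None of the 10 members was called lower, against 4.34% of all genes, and none was called higher, against 2.32% of all genes. Among genes that reached 1 FPKM in either library these shares were 4.45% and 1.71%. Their PU.1-/- over WT ratios ran from 0.891 (Angpt1) to 1.58 (Vegfa), with a median log2 ratio of 0.15, while the median over the 16298 genes that reached 0.1 FPKM in either library was -0.01. The counting interval lay above 1 for 4 members (Vegfa, Kdr, Flt1 and Tie1), below 1 for Angptl4, and held 1 for the other 5. This split is that of the deposited scaling, and it was the same when the libraries were centred on the median of genes with at least 10 FPKM. With the FPKM sums of the libraries made equal, 6 intervals lay above 1, those of Vegfb and Angpt2 added, none lay below 1, and 4 held it, that of Angptl4 included (0.949 to 1.01). With the longest transcript of each gene, all 10 intervals lay within 2-fold in either direction. The share of all genes whose interval leaves out 1 was not computed, so these interval counts cannot be set against other genes. In such bulk tissue, fewer cells of a type and less RNA per cell cannot be told apart.

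The starts of the 4 genes whose interval lay above 1 under each scaling given above are shown. The reason is that PU.1 and several endothelial regulators belong to the ETS family, whose sites share the core GGAA. Each sequence runs from 250 bases before to 50 bases after a RefSeq transcript start on GRCm38.p6, written 5′ to 3′ along the strand of the gene, here the minus strand for all 4, with GGAA or its reverse complement TTCC in capitals.
Vegfa (chr17:46032328-46032627): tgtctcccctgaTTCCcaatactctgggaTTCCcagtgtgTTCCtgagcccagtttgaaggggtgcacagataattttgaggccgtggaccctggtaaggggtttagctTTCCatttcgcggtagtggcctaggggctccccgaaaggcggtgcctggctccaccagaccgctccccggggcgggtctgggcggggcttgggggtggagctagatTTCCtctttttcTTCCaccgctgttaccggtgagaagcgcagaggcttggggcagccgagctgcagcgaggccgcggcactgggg
Kdr (chr5:75978406-75978705): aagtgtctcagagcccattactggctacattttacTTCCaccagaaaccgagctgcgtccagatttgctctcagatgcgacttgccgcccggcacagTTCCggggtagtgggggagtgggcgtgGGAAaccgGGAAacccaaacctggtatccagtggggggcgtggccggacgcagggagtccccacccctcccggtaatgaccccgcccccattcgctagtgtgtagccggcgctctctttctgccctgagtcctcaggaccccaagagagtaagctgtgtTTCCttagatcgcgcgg
Flt1 (chr5:147725962-147726261): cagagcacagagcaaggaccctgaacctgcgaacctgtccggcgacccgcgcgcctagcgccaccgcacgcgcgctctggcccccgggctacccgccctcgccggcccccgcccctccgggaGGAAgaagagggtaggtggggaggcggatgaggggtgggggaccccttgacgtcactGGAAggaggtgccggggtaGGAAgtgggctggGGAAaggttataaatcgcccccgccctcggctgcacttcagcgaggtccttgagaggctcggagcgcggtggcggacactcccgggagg
Tie1 (chr4:118489800-118490099): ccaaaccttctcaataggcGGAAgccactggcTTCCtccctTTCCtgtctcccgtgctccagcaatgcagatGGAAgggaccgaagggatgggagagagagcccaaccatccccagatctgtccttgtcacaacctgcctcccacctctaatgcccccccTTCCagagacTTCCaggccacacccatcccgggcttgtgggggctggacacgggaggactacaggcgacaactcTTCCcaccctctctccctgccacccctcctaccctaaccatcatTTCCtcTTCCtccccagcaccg
The Tie1 window held 9 matches of the core on both strands together, a number reached by 1.59% of the 32851 windows of the same length in the RefSeq table. The Vegfa window held 6 (15.7% of windows have as many or more), that of Kdr 5 (28.6%) and that of Flt1 4 (46.3%). A second Vegfa window, at chr17:46025114-46025413, held 3, the median over all windows. This window and the printed Kdr and Flt1 windows lie wholly within the gene spans given below, so not at the outermost start. Among the members not printed, the Tek window (ratio 1.04) held 2 and the Vegfb window (ratio 1.19) also held 2. The Pgf windows (ratio 1.03) held 1 and 2. The printed genes were chosen by their intervals in these data, and a link between core matches and ratios was not tested. The core is short and 96.0% of all windows hold it, so these matches describe the letters and not binding. The core of hypoxia-inducible factor sites, ACGTG, or its reverse complement CACGT was absent from the Vegfa window printed above. It occurred 1 time in the second Vegfa window, which lies within the span of the gene. It was present in 19.6% of all windows. The windows reach 250 bases before a start, so sites elsewhere were not searched. Sequence windows were found for 7 of the 10 members, and none was at hand for Angpt1, Angpt2 and Angptl4.

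The members lie on 7 chromosomes, and 3 chromosomes carry a pair of them. On GRCm38, the assembly of mm10, Tek (chr4:94739086-94874976, plus strand) and Tie1 (chr4:118471191-118489849, minus strand) share chromosome 4. Kdr (chr5:75932827-75979072) and Flt1 (chr5:147561604-147726438), both on the minus strand, share chromosome 5. Vegfa (chr17:46016993-46032377) and Angptl4 (chr17:33774900-33781575), also on the minus strand, share chromosome 17, but had the highest ratio and the second lowest ratio of the 10. The remaining members, all on the minus strand, are Angpt2 (chr8:18690263-18741562), Pgf (chr12:85166637-85177785), Angpt1 (chr15:42424667-42676977) and Vegfb (chr19:6982472-6987651).

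Vegfa, the main growth factor of endothelial sprouting, was at 13.2 FPKM in the WT wound (interval 12.1 to 14.3) and at 20.8 FPKM in the PU.1-/- wound (19.5 to 22.1). Its ratio of 1.58 had a counting interval of 1.43 to 1.75 and did not reach the 2-fold threshold. Of the 13237 genes that reached 1 FPKM in either library, 4.39% had a higher ratio. Vegfa has 5 transcripts linked to RefSeq, of 654 to 3451 nt, and with the shortest of them the estimated reads were 83 and 150 and the interval 1.20 to 2.08. With the longest and with the shortest, the interval lay above the median ratio of the endothelial markers, 1.18. That median had an interval of its own over the markers, 0.985 to 1.26. The Vegfa interval lay above this range with the longest transcript but overlapped it with the shortest. At a threshold of 1.5, Vegfa was the only member called, as were 5.79% of all genes and 5.45% of those that reached 1 FPKM. No member was lower by 1.5-fold, against 7.67% of all genes and 8.17% of those that reached 1 FPKM.

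Vegfb, a ligand of Flt1 that is abundant in muscle and other oxidative tissues, had 12.3 FPKM (WT) against 14.7 FPKM (PU.1-/-), giving a ratio of 1.19 (0.978 to 1.44). Pgf, placenta growth factor, another ligand of Flt1, had 4.44 FPKM (WT) against 4.58 FPKM (PU.1-/-), giving a ratio of 1.03 (0.759 to 1.38). Neither difference exceeded counting error in the values as deposited. Together the 3 VEGF ligands summed to 29.9 FPKM (WT) against 40.0 FPKM (PU.1-/-), and most of this difference was Vegfa.

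**Figure D1:**
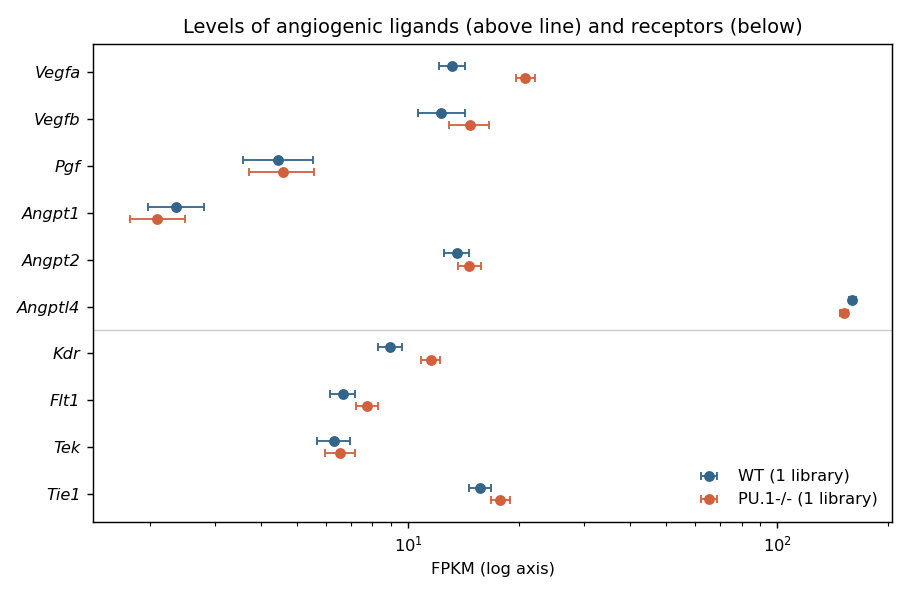
FPKM of each of the 10 members on a log axis, with 1 point for the WT library and 1 for the PU.1-/- library and bars for the 95% Poisson counting interval; ligands are above the line and receptors below it. Angptl4 stands apart at 159.7 and 151.7 FPKM, the other 9 members lie between 2.09 and 20.8 FPKM, and the bars of the libraries do not overlap for Vegfa, Angptl4, Kdr and Flt1. How often such bars fail to overlap among all genes was not computed.

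Angpt1, the agonist of Tek made mainly by mural and other mesenchymal cells, was the lowest member in both libraries. It had 2.35 FPKM (WT) against 2.09 FPKM (PU.1-/-), from about 132 and 135 reads, a ratio of 0.891 (0.695 to 1.14). Angpt2, the context-dependent antagonist stored in endothelial cells, had 13.5 FPKM (WT) against 14.6 FPKM (PU.1-/-), giving a ratio of 1.08 (0.974 to 1.21). Both intervals held 1. Angpt2 was thus the more abundant angiopoietin in each wound, at 5.75 times Angpt1 in WT and 6.99 times in PU.1-/-. The change of this balance, 1.22-fold, was within counting error (0.928 to 1.59).

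Angptl4 encodes a secreted inhibitor of lipoprotein lipase that is induced by fasting through PPAR factors and by low oxygen, and that also acts on vessel permeability. It had by far the highest level of the 10, with 159.7 FPKM (WT) against 151.7 FPKM (PU.1-/-), above 96.5% and 96.6% of the genes that reached 0.1 FPKM in either library. With about 6854 and 7477 reads its counting interval was the narrowest, and its ratio of 0.950 (0.919 to 0.982) lay below 1 by little. The spread over animals of 1 genotype, against which it would have to be read, was not measured.

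Kdr, the gene of VEGFR2 and the main signalling receptor of Vegfa, had 8.91 FPKM (WT) against 11.5 FPKM (PU.1-/-), giving a ratio of 1.29 (1.17 to 1.42). Flt1, the gene of VEGFR1, which binds Vegfa, Vegfb and Pgf and also exists as a soluble decoy, had 6.64 FPKM (WT) against 7.75 FPKM (PU.1-/-), giving a ratio of 1.17 (1.05 to 1.30). Both VEGF receptors were above their WT level beyond counting error, by less than 1.5-fold. The gene level FPKM does not separate the soluble from the membrane form of Flt1. Of the angiopoietin receptors, Tie1 had 15.7 FPKM (WT) against 17.8 FPKM (PU.1-/-), giving a ratio of 1.13 (1.03 to 1.24). Tek had 6.28 FPKM (WT) against 6.54 FPKM (PU.1-/-), giving a ratio of 1.04 (0.908 to 1.20), which did not exceed counting error. The 4 receptors summed to 37.5 FPKM (WT) against 43.6 FPKM (PU.1-/-), giving a ratio of 1.16.

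The ratios of the receptors lay close to the median ratio of other endothelial genes. Over 20 endothelial markers the summed level was 444 FPKM (WT) against 501 FPKM (PU.1-/-), and the median ratio was 1.18, with 14 markers above 1 and 6 below. Pecam1, the adhesion molecule of endothelial junctions, had 65.3 and 78.7 FPKM, and Plvap, of the diaphragms of fenestrated vessels, had 54.0 and 62.0 FPKM. The 6 below 1 were named after their values were seen. Cldn5, with 33.2 and 27.9 FPKM (ratio 0.839, interval 0.744 to 0.947), lay below its WT level beyond counting error. So did Robo4, with 4.16 and 3.46 FPKM (ratio 0.832, upper end of the interval 0.990). The intervals of Egfl7, Ecscr, Sox17 and Sox18 held 1. The only marker called was Vwf, von Willebrand factor, higher in PU.1-/- with 2.82 and 5.90 FPKM. Relative to the marker median, the ratio was 1.10 for Kdr, 0.993 for Flt1, 0.964 for Tie1 and 0.886 for Tek. The counting interval of each of the 4 receptors held the marker median, that of Kdr only just (0.997 to 1.21 relative to it). The median itself had an interval over the markers of 0.985 to 1.26, which the counting intervals leave out. Since the median was taken as fixed, this comparison cannot decide whether a receptor differed from it. Relative to the same median, Vegfa was at 1.34.

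**Figure D2:**
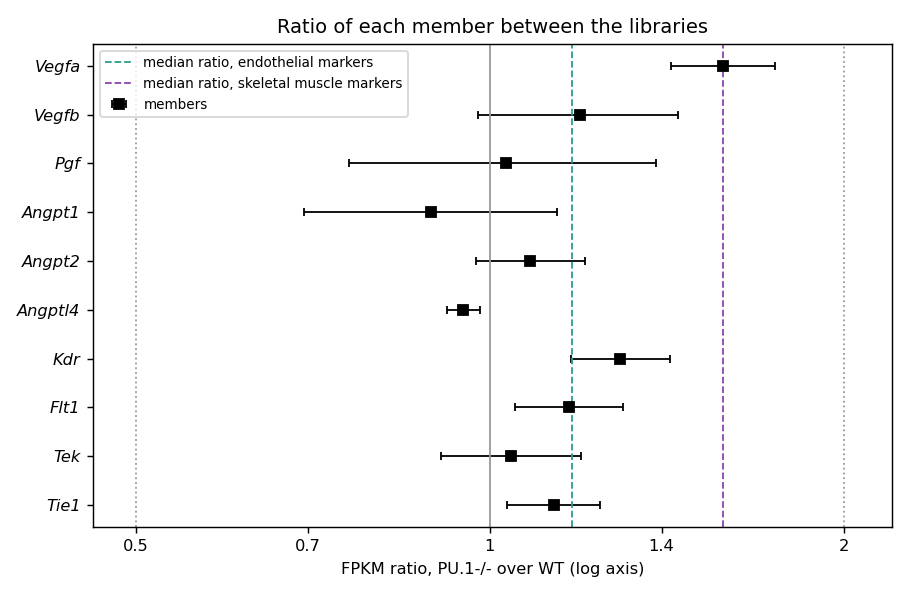
PU.1-/- over WT ratio of each member (squares, log axis) with its 95% exact binomial counting interval. Dotted lines mark 2-fold in either direction, and dashed lines the median ratio of the endothelial (1.18) and skeletal muscle (1.58) markers. Vegfa, at 1.58, lies beyond the endothelial line, and the bars of all 4 receptors reach it.

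In the order of levels, Angptl4 came first in both libraries, and Kdr, Flt1, Tek, Pgf and Angpt1 held the sixth to the tenth place in both. Vegfa moved from the fourth place in WT to the second in PU.1-/-, where it passed Tie1 and Angpt2. In WT the intervals of Angpt2, Vegfa and Vegfb overlapped, as did those of Flt1 and Tek, so these neighbours were not separated by counting error. In PU.1-/- the only neighbours with overlapping intervals were Vegfb and Angpt2. Lengths of different transcripts enter these levels, so neighbours may also differ by the annotation used.

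The balance between members was examined as 11 ratios of FPKM within each library. Vegfa was 1.48 times Kdr in WT and 1.81 times in PU.1-/-, a 1.22-fold change with an exact conditional interval of 1.06 to 1.41 on the estimated reads. Vegfa over Flt1 was 1.98 in WT and 2.68 in PU.1-/-, a 1.35-fold change (1.17 to 1.57). Angptl4 was 12.1 times Vegfa in WT and 7.30 times in PU.1-/-, a change to 0.602 of the WT ratio (0.541 to 0.670). These and the ratios of Vegfa to Vegfb and to Pgf were the 5 whose interval left out 1. They are all the pairs that include Vegfa. Each change sets the PU.1-/- over WT ratio of Vegfa against that of its partner, so the 5 are not separate results. With the shortest transcript of each gene, 2 of the 11 intervals left out 1, those of Angptl4 over Vegfa (0.455 to 0.796) and of Vegfa over Pgf (1.02 to 2.32). The balance of the receptors differed within counting error, with Flt1 over Kdr at 0.745 in WT and 0.674 in PU.1-/- (0.783 to 1.04 for the change), and Tie1 over Tek at 2.50 and 2.71 (0.921 to 1.28).

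**Figure D3:**
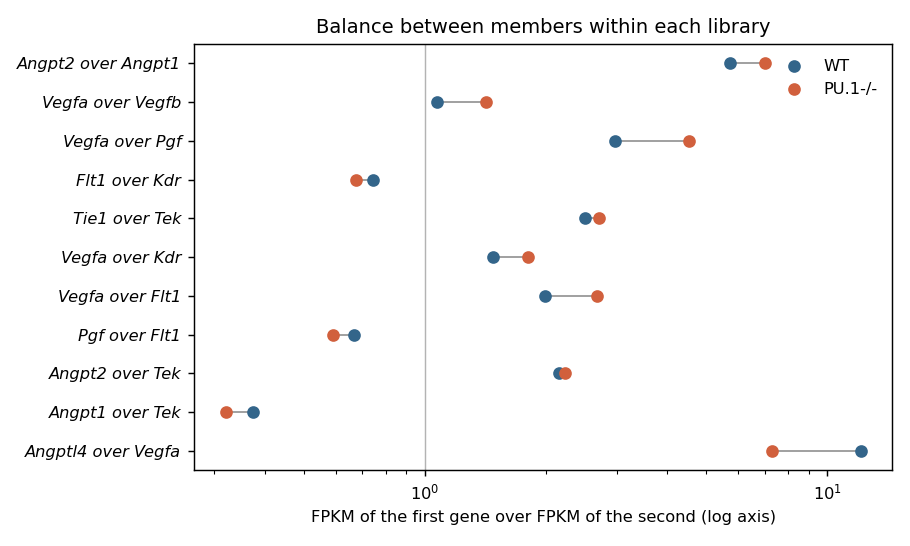
Ratio of the FPKM of paired members within the WT and the PU.1-/- library, on a log axis, with lines joining the libraries. The widest shifts involve Vegfa, such as Angptl4 over Vegfa, from 12.1 to 7.30, while Angpt2 over Tek hardly differs, at 2.15 and 2.24.

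Other genes of vessel growth were taken as a list of 39, all of which reached 0.1 FPKM in either library. Of these, 1 was lower, 1 was higher and 37 were not called, with 26 ratios above 1 and 13 below and a median log2 ratio of 0.12. The lower gene was Thbs1, thrombospondin 1, an inhibitor of angiogenesis also released by platelets and myeloid cells, with 252 FPKM (WT) against 96.0 FPKM (PU.1-/-) (ratio 0.381, interval 0.371 to 0.390). Its relative Thbs2 was not called, with 65.0 and 75.8 FPKM. The higher gene was Angptl7, near the limit of detection at 0.156 and 0.339 FPKM, with an interval from 0.709 to 10.3. The VEGF ligands of lymphatic vessels were not called, Vegfc with 4.14 and 4.39 FPKM and Vegfd (listed as Figf) with 7.78 and 8.07 FPKM. The co-receptors Nrp1, with 15.6 and 17.0 FPKM, and Nrp2, with 18.1 and 18.9 FPKM, were not called either. Dll4, the Notch ligand of sprouting tip cells, which Vegfa is known to induce, had 5.64 and 4.08 FPKM, a ratio of 0.723 (0.606 to 0.867). Apln, the apelin ligand of tip cells, also lay below its WT level, at 3.33 and 2.39 FPKM (ratio 0.717, interval 0.553 to 0.928). Other genes of sprouting vessels lay above, Pdgfb, which attracts pericytes, with 9.17 and 10.7 FPKM (ratio 1.16, interval 1.01 to 1.34), and Esm1, a secreted proteoglycan of tip cells, with 0.609 and 0.862 FPKM (ratio 1.41, interval 0.731 to 2.82). Vegfc, Vegfd, Nrp1, Nrp2, Dll4, Apln, Pdgfb, Esm1 and Angptl7 were named after their values were seen.

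Of 21 genes of signalling below the VEGF and angiopoietin receptors, 20 reached 0.1 FPKM in either library, and 1 of these was called. This was Dok2, an adaptor that binds Tek but is known chiefly from blood cells, with 13.9 FPKM (WT) against 0.125 FPKM (PU.1-/-). The median log2 ratio of the list was 0.02. Its most abundant genes were Hspb1, a heat shock protein of actin filaments, with 555 and 697 FPKM, and Cdc42, a small GTPase of cell polarity, with 238 and 207 FPKM.

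Cell types that make the ligands differed between the libraries in different ways. Macrophages, which can express Vegfa, Flt1 and Tek, had the marker sums given above, and none of these 3 members was lower in PU.1-/-. Of 9 listed neutrophil markers 8 were lower, with a sum of 12555 FPKM (WT) against 3669 FPKM (PU.1-/-) and 4 listed at 0 (Ngp, Retnlg, Ltf and Csf3r). Most of this sum is S100a8 and S100a9, which keratinocytes also express, and the part of these cells in the members' values was not tested. Keratinocyte markers had 0 of 10 called, a median ratio of 1.15, Krt14 at 4659 and 5195 FPKM and Krt10 at 2291 and 2602 FPKM. Fibroblast markers also had 0 of 10 called and a median ratio of 1.19, with Col3a1 at 1042 and 1110 FPKM and Dcn at 689.7 and 959 FPKM. Of 10 pericyte and mural cell markers 1 was called, Higd1b, higher with 1.25 and 4.10 FPKM from about 9 and 35 reads. The list had 7 ratios above 1 and 3 below, with a median of 1.05. The markers of highest level were Anpep, an aminopeptidase, with 21.4 and 23.6 FPKM and Pdgfrb, the receptor that recruits pericytes, with 19.3 and 20.2 FPKM. The 3 below 1, named after their values were seen, were Rgs5 with 16.5 and 13.6 FPKM, Myh11 with 5.96 and 4.67 FPKM and Cnn1 with 1.70 and 1.20 FPKM.

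Skeletal muscle markers were mostly above their WT level, as was Vegfa. Of 12, 10 had a ratio above 1 and 2 below, and 3 were called higher (Myh3, Myh8 and Ttn). Their sum was 10690 FPKM (WT) against 17584 FPKM (PU.1-/-), and their median ratio was 1.58, which the interval of Vegfa held. The interval of Vegfb (0.978 to 1.44) lay below this marker median, but overlapped the median's own interval over the markers, 1.43 to 2.01. The most abundant were Acta1, skeletal actin, with 3224 and 5955 FPKM and Mylpf, a myosin light chain, with 1969 and 3113 FPKM. The 2 below 1, named after their values were seen, were Mb, myoglobin, with 4.22 and 2.73 FPKM (ratio 0.647, interval 0.413 to 0.987) and Myh4 with 0.531 and 0.484 FPKM. Muscle is a known source of Vegfa and Vegfb, and the part of muscle in the values of Vegfa and Vegfb was not tested.

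Targets of low oxygen were compared because Vegfa and Angptl4 are among the genes induced by hypoxia. Of 18 such genes 1 was called, Egln3, a prolyl hydroxylase that marks hypoxia-inducible factors for breakdown, with 47.9 FPKM (WT) against 98.5 FPKM (PU.1-/-). The list had a median log2 ratio of 0.28, with 12 genes above 0 and 6 below. Its most abundant genes lay on either side of a ratio of 1, Aldoa with 1004 and 1231 FPKM and Ldha with 758 and 715 FPKM. Of 12 PPAR targets, as is Angptl4, none was called, and the median log2 ratio was -0.00, with Fabp4 at 3408 and 3037 FPKM and Cd36 at 135 and 138 FPKM. Adipocyte markers had 3 of 8 called lower (Plin1, Cfd and, named after its values were seen, Lep) and a median ratio of 0.590, while Angptl4, which fat cells also secrete, had a ratio of 0.950. The part of these cell types and pathways in the members' values was not tested.

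**Figure D4:**
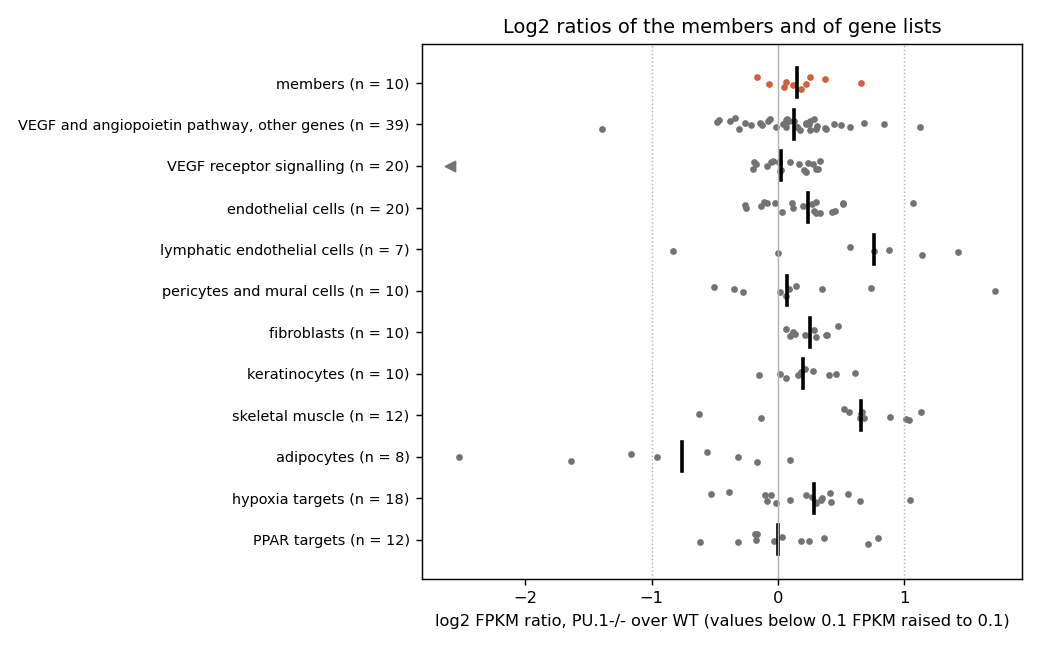
Log2 ratio (PU.1-/- over WT) of the members and of the genes of each list that reached 0.1 FPKM in either library, 1 point per gene, with the median as a black bar and dotted lines at 2-fold. The 10 members lie between -0.17 and 0.66, the muscle list is centred at 0.66 and the adipocyte list at -0.76, and the triangle marks Dok2, beyond the axis at -6.79.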

How the data were processed

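Bulk mRNA of 2 skin wound libraries, 1 WT and 1 PU.1-/-, was analysed. The authors prepared stranded mRNA libraries, read them from 1 end, mapped the reads to mm10 and deposited FPKM values from Cuffnorm 2.2.1. The submitters' processing notes list TopHat2 2.1.1, Bowtie2 2.2.8, SAMtools 0.1.18 and Cuffdiff 2.2.1. The gene annotation is not given in the sources used here.

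Ratios were taken from the deposited FPKM values, with a floor of 0.1 FPKM and a threshold of 2. The genes named are the 10 members and, from each list, those past the threshold with at least 1 FPKM in 1 library (4 where there were more than 6), the 2 of highest mean and those said to be added. The members and lists were chosen with earlier results of these data known.

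Read numbers were estimated with GENCODE M21 transcripts linked to RefSeq, the longest per gene, found for 22333 genes (91.7%), less a fragment length of 200 nt. In 288 genes of 1 transcript over 1500 nt, 1 read was worth 72.4 FPKM times nt in WT. Equal read numbers gave a WT over PU.1-/- ratio of 1.15 in 459 genes. Of low values (under 5.5 reads), 78.8% of 955 in WT and 80.0% of 946 in PU.1-/- were whole within 0.1 reads, so the reads are estimates. Intervals are exact binomial for ratios, Poisson for levels and exact conditional for ratios of ratios, at 95%. Those of list medians are order-statistic intervals over the genes of a list, which treat genes as independent and hold no spread over animals. Reads without molecular identifiers are not independent molecules, so the intervals that rest on reads cover counting error only. Of the genes in the lists, 1 (Ly6g) was not found. The functions were tested on simulated data. Python 3.11.15 was used with scipy 1.17.1, matplotlib 3.10.9, numpy 2.4.6 and pandas 2.3.3. Alternatives were 2 floors, 2 pseudocounts, a filter, 3 scalings, 2 thresholds, shorter transcripts and centring on endothelial markers.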

Additional observations from a re-analysis of the deposited data

How the results depend on the processing

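No paired analysis was possible because there is 1 library per genotype, and for the same reason no library could be left out. No member was called lower under any of 10 alternatives, and Vegfa alone was called higher, 1 member, at a threshold of 1.5. Over floors, pseudocounts and scalings of the libraries the ratio of Vegfa stayed between 1.54 and 1.63 and no member crossed 1. Angptl4 came to 0.984 when FPKM sums were made equal without muscle, macrophage and neutrophil markers and short genes, outside its counting interval. Under that scaling, as with equal FPKM sums, 6 intervals lay above 1 and none below. Centring on the median of genes with at least 10 FPKM left 4 above and 1 below, as deposited. Relative to the endothelial median the ratios became 1.34 for Vegfa, 0.921 for Angpt2, 0.808 for Angptl4, 1.10 for Kdr, 0.993 for Flt1, 0.886 for Tek and 0.964 for Tie1. This follows from dividing every ratio by 1.18, and puts Pgf (0.877), Angpt2, Flt1, Tek and Tie1 on the other side of 1.

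The background of 1057 lower and 565 higher genes depended on low values. The numbers were 1778 and 1220 with a floor of 0.01 FPKM, 463 and 164 with a floor of 1 FPKM, 461 and 89 with a pseudocount of 1 FPKM, 589 and 226 among genes with at least 1 FPKM, 1867 and 1410 at a threshold of 1.5, and 681 and 150 at a threshold of 3. The median log2 ratio of the macrophage markers was -8.51, and -11.58 with a floor of 0.01 FPKM, since most are listed at 0 in PU.1-/- and take the floor as their value. The other 103 of 104 alternative medians of the lists stayed within the spread of their own genes. With the longest transcripts, Pgf, Angpt1 and Vegfb had the fewest estimated reads, 85 to 251 per library, and with the shortest Vegfa had 83 and 150.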

Other observations

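Some other vascular genes outside the members, named after their values were seen, lay further above their WT level than the receptors. Aplnr, the apelin receptor of venous endothelium and sprouts, had 16.6 FPKM (WT) against 29.6 FPKM (PU.1-/-), giving a ratio of 1.78 (interval 1.64 to 1.94), while its ligand Apln lay below the WT level. Fgf2, a growth factor of endothelium and fibroblasts, had 4.79 and 7.69 FPKM, a ratio of 1.61 (1.41 to 1.82). Clec14a, an endothelial lectin, had 6.28 and 8.96 FPKM, a ratio of 1.43 (1.25 to 1.63). Cd93 and Hgf, also named after their values were seen, lay below their WT level. Cd93 had 16.9 and 13.4 FPKM, a ratio of 0.790 (0.734 to 0.850). Hgf had 4.02 and 3.09 FPKM, a ratio of 0.769 (0.618 to 0.957). None of these genes reached 2-fold in either direction.

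Among 7 markers of lymphatic endothelium 2 were called higher in PU.1-/-, Reln with 1.02 and 2.25 FPKM and Ccl21a, a chemokine of lymphatic vessels with close gene copies whose reads may be shared, with 9.61 and 25.8 FPKM. Flt4 and Prox1 were named after their values were seen. Flt4, the receptor of Vegfc, had 3.45 and 5.11 FPKM, a ratio of 1.48 (1.28 to 1.72), and Prox1, the transcription factor of lymphatic identity, 1.19 and 2.01 FPKM. Lyve1, which macrophages of the skin also express, lay below its WT level, with 38.3 and 21.5 FPKM, and the most abundant marker, Pdpn, had 81.7 FPKM in both libraries. The median log2 ratio of the list was 0.76.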
